A study of Mus musculus with 35 samples.

Results

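Wound epithelium genes are named after transcripts that epithelial cells make while they cover and rebuild an injured mucosa. Which cells made them in these samples was not measured. The set described here held 10 of the 19908 genes measured, namely Plet1, Clca4b, Clca4a, Sptssb, Dhrs9, Sprr1a, Ly6d, Il33, Phlda1 and Anxa1, and all 10 had a probe set of their own. They were chosen by symbol, with earlier results of these data known. The values used in the choice were the responses to dextran sulfate sodium (DSS) in conventional wild-type mice, the differences between genotypes, and the levels of Plet1, Clca4b and Dhrs9 in transgenic mice, among them the high Plet1 of some untreated ones. The link between Plet1 and the position marker Hoxb13 was known as well. Those values are given without a test, as are Plet1, Clca4b and Dhrs9 in the comparisons that hold transgenic flora. Wild-type flora against axenic controls is the difference of those comparisons, so Plet1, Clca4b and Dhrs9 are described only there as well. The DSS response of transgenic mice is the sum of values used in the choice, so it too is described only.

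When the colon surface is lost, cells at the edge of the wound flatten and migrate over the gap, and crypts then regrow beneath them. In mouse colon such cells switch on genes of the fetal gut and of skin-like repair, and Plet1 and Clca4b are among the transcripts used to recognise them. Several of the products act outside the cell, as with Il33, an alarm cytokine of the interleukin-1 family, while others alter lipids, retinoids or the cell envelope.

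RNA came from colon pieces of 35 C57BL/6N mice, 5 in each of 7 groups, with 1 array per mouse. Conventional mice were DSS-treated Reg3a-transgenic, DSS-treated wild-type, untreated Reg3a-transgenic or untreated wild-type. DSS, a polymer that injures the colon lining, was given at 3% in the drinking water for 5 days, plain water followed, and colons were taken on day 12, so these are tissues some days into repair. Axenic (germ-free) mice given DSS were recipients of flora from transgenic donors, recipients of flora from wild-type donors, both transplanted 3 weeks before DSS, or controls. Titles set these groups, and they conflict with the treatment field, which puts conventional mice after a transfer of microbes that neither titles nor design text mention for them. The label of the controls sets DSS before microbes were transferred, and leaves unsaid whether they were given any. The sources used here also do not give the promoter and species of the transgene, the host genotype of the axenic mice, or the sex and cage of any mouse. Mice are named by the end of their titles (TG28), where TG or WT stands for the donor of flora in axenic recipients.

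Values are log2 signals, so 1 unit is a 2-fold difference, and levels of different genes cannot be ranked against each other. Array medians lay between 6.65 and 6.95 and the spread over the probe sets of an array (SD) between 1.64 and 2.03. That spread averaged 1.83 with transgenic flora, 1.96 with wild-type flora and 1.73 in axenic controls. Markers of colon epithelium averaged 10.23 to 11.7 per mouse over 13 genes, those of smooth muscle 9.63 to 11.26 over 8 genes, and those of stratified squamous epithelium 6.13 to 6.67 over 20 genes. The samples thus held the muscle wall as well as epithelium, and a lower signal may reflect fewer cells of a type or less RNA per cell, which cannot be told apart in such tissue. A gene was called when its adjusted p was under 0.05.

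Of the 10 genes, 4 lie on mouse chromosome 3, where Clca4b (chr3:144910921-144932529) and Clca4a (chr3:144952486-144975045) are neighbours, with Sptssb and Sprr1a elsewhere on it (RefSeq, GRCm38.p6). Plet1 spans chr9:50494525-50505639. RefSeq promoter sequences of GRCm38.p6 were matched for 7 genes, 8 promoters in all, since Il33 has a pair of starts, and none was listed for Clca4a, Ly6d and Phlda1. The 250 bases before the start are printed for Plet1, Sptssb, Clca4b and Sprr1a, because the first 3 of these genes had the largest DSS responses of the 10 in wild-type mice and because Sprr1a differed from its gene family. The Sptssb window lies inside the span of its gene (chr3:69819538-69861363), so it precedes an internal start. Capitals mark an AP-1 motif (TGANTCA, both strands).
Plet1 (chr9:50494275-50494524, plus strand): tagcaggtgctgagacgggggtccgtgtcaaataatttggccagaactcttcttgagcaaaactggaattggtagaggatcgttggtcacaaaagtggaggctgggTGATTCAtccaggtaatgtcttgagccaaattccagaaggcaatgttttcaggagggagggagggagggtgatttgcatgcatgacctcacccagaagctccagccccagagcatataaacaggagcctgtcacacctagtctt
Sptssb (chr3:69859895-69860144, minus strand): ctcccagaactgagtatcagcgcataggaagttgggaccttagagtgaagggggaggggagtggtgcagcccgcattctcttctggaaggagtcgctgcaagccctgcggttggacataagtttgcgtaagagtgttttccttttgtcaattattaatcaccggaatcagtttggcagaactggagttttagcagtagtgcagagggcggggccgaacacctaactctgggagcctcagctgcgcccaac
Clca4b (chr3:144932530-144932779, minus strand): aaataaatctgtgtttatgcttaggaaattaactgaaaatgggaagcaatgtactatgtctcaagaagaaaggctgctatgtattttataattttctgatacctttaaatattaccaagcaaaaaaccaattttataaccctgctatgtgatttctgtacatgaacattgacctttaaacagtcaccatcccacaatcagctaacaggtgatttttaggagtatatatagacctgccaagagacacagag
Sprr1a (chr3:92485882-92486131, minus strand): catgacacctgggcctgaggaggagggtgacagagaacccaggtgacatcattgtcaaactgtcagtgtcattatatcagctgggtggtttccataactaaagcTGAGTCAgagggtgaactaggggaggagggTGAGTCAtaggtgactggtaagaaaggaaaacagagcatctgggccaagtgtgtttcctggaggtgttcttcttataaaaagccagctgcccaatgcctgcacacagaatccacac
AP-1, the Fos and Jun dimer, TEAD, the DNA partner of YAP, and STAT proteins are transcription factors known in epithelial repair. The AP-1 letters stood in 3 of the 8 member promoters, those of Plet1 (first base at -144), Dhrs9 (-18) and Sprr1a (-146 and -116), against 6.75% of 32851 promoters searched over the same length. The TEAD letters (GGAATG, both strands) stood in 3 of 8, in Anxa1 and both Il33 promoters, against 12.6% of all, and the STAT letters (TTCNNNGAA) in 0 of 8, against 7.02%. The Sptssb and Clca4b windows held none of these letters. A match is a description of these windows and shows no binding.

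Plet1, a lipid-anchored surface protein of epithelial progenitors, was high in every DSS mouse outside the axenic controls. Under DSS it read 10.98, 11.63, 12.49, 12.94 and 13.08 in transgenic mice and 12.52, 12.56, 12.65, 12.73 and 13.09 in wild-type mice. Untreated transgenic mice read 7.07, 7.26, 8.97, 11.14 and 11.3, and untreated wild-type mice 7.0, 7.01, 7.11, 7.56 and 7.9. The wild-type groups were far apart, while in transgenic mice the lowest DSS value lay below the 2 highest untreated values. Among axenic mice given DSS it read 11.24, 11.49, 12.6, 12.87 and 13.18 with transgenic flora, 12.68, 12.82, 13.07, 13.14 and 13.38 with wild-type flora, and 7.25, 7.28, 7.4, 7.68 and 7.94 in controls. All 10 flora recipients lay above every control. The axenic controls, which were given DSS, read within 0.19 of untreated wild-type mice on average, and the ranges of these 2 groups overlapped.

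**Figure D1:**
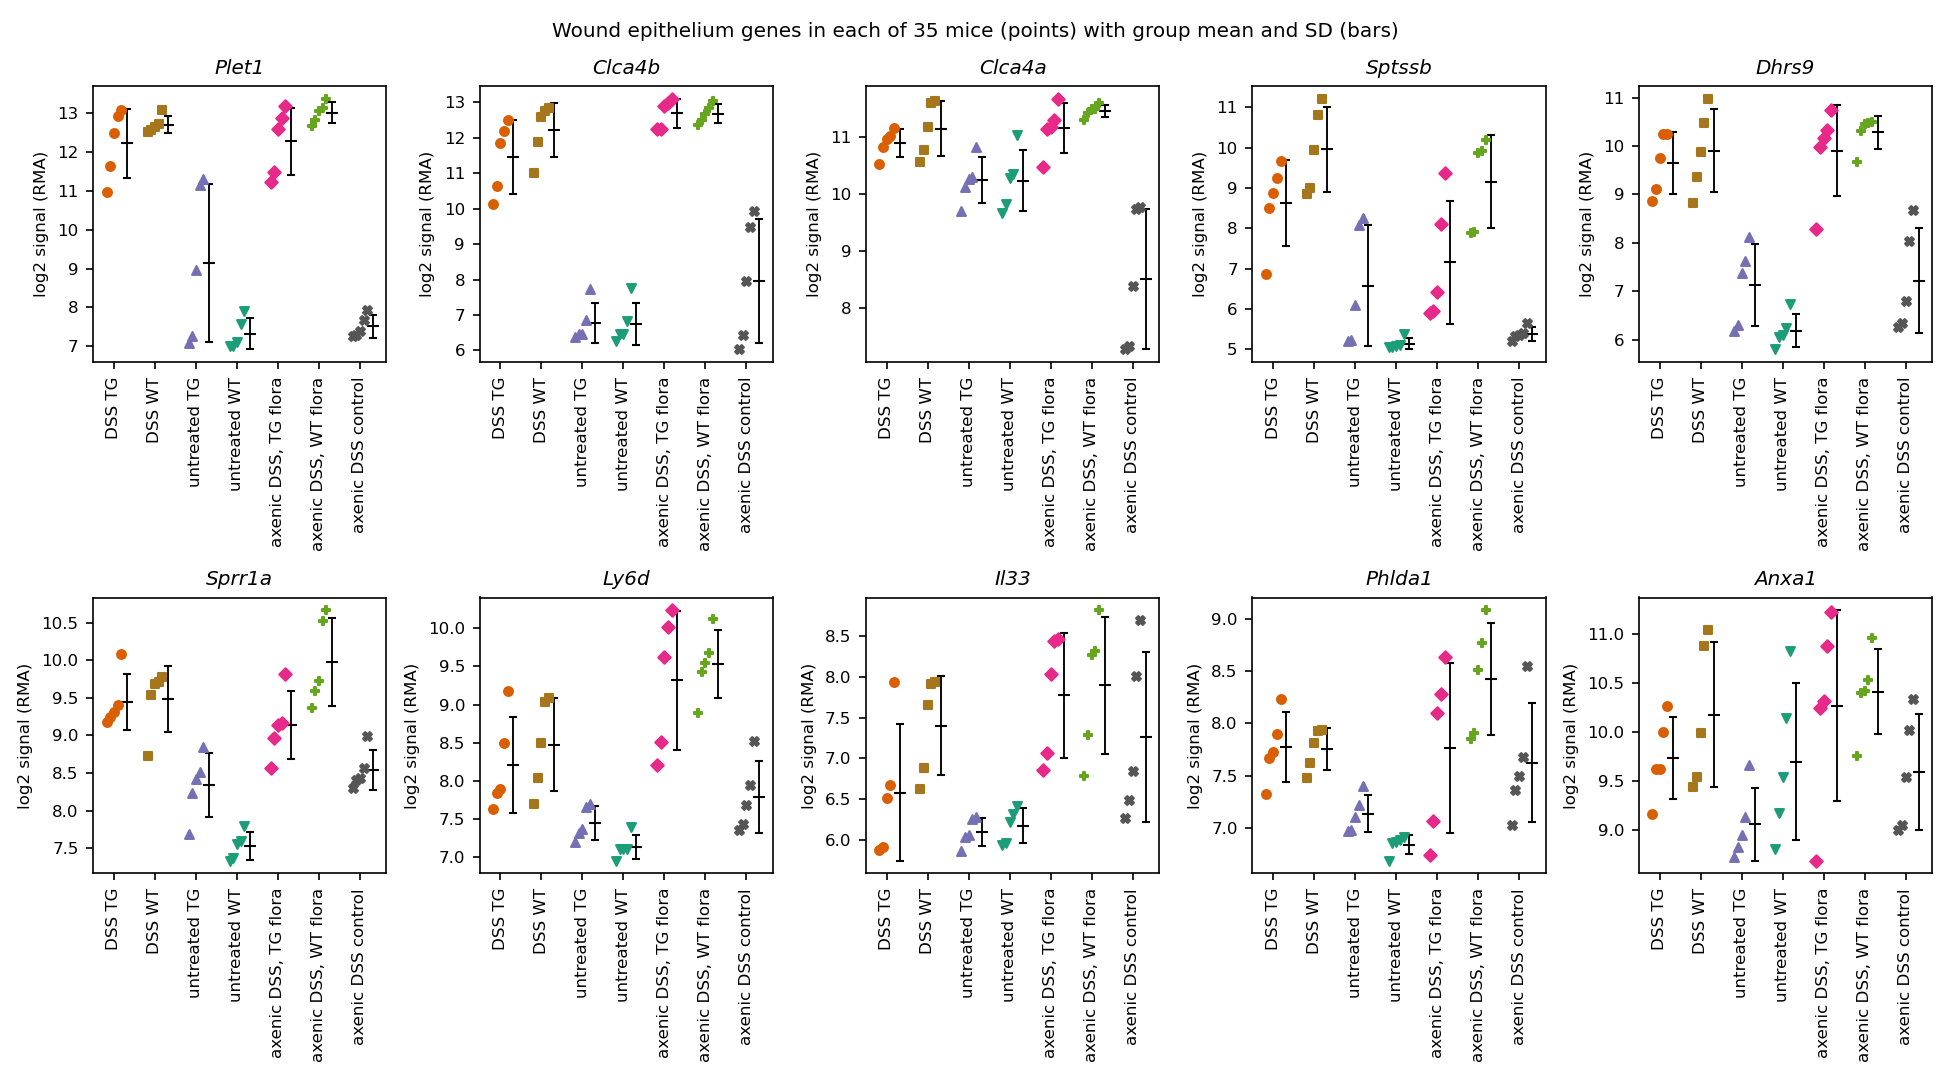
Log2 signal (y axis) of the 10 wound epithelium genes, one panel each, in 35 mice (points) of 7 groups (x axis; TG, Reg3a-transgenic; WT, wild-type), with the group mean and SD as bars. Plet1 reads 10.98 or more in all DSS mice with flora and at most 7.94 in axenic controls, while untreated TG mice spread between 7.07 and 11.3.

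Clca4b, a secreted member of the calcium-activated chloride channel regulator family, had the widest range of the 10 genes, 6.03 to 13.09. Under DSS it read 10.12, 10.63, 11.85, 12.19 and 12.51 in transgenic mice and 11.02, 11.87, 12.6, 12.76 and 12.83 in wild-type mice. Untreated values were 6.37, 6.46, 6.47, 6.86 and 7.72 in transgenic mice and 6.28, 6.46, 6.46, 6.82 and 7.75 in wild-type mice, so untreated mice of both genotypes overlapped throughout and lay below every DSS mouse. Recipients read 12.24, 12.25, 12.91, 12.98 and 13.09 with transgenic flora and 12.36, 12.5, 12.67, 12.85 and 13.03 with wild-type flora, against 6.03, 6.43, 7.95, 9.49 and 9.93 in controls. The axenic controls were therefore uneven for Clca4b, with mice CT229 (9.93) and CT517 (9.49) well above the other 3. Clca4a, its neighbour, was already high without DSS, at 9.7 to 10.83 in untreated transgenic and 9.66 to 11.04 in untreated wild-type mice. Its lowest group was the axenic controls, which read 7.27, 7.32, 8.39, 9.74 and 9.77, and here too mice CT517 and CT229 were the higher ones.

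Sptssb, a small subunit of serine palmitoyltransferase, the enzyme that opens sphingolipid synthesis, was raised in the same 2 untreated transgenic mice as Plet1. Under DSS it read 6.88, 8.5, 8.87, 9.25 and 9.67 in transgenic mice and 8.86, 8.99, 9.95, 10.81 and 11.22 in wild-type mice. Untreated transgenic mice read 5.21, 5.22, 6.1, 8.09 and 8.26, and untreated wild-type mice 5.05, 5.06, 5.09, 5.1 and 5.38. Only the wild-type groups stayed apart from each other. Among axenic mice it read 5.9, 5.96, 6.42, 8.12 and 9.37 with transgenic flora, 7.89, 7.9, 9.87, 9.91 and 10.19 with wild-type flora and 5.2, 5.32, 5.35, 5.4 and 5.65 in controls. Every recipient exceeded every control, although 3 recipients of transgenic flora did so narrowly.

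Dhrs9 encodes a short-chain dehydrogenase that oxidises retinol. It averaged 9.64 ± 0.64 in DSS transgenic and 9.9 ± 0.86 in DSS wild-type mice (SD, n = 5 each), against 7.12 ± 0.85 in untreated transgenic and 6.19 ± 0.34 in untreated wild-type mice. With flora it averaged 9.9 ± 0.94 (transgenic) and 10.28 ± 0.35 (wild-type), against 7.22 ± 1.08 in axenic controls. Sprr1a, a precursor of the cornified envelope of skin, averaged 9.45 ± 0.37 in DSS transgenic, 9.49 ± 0.44 in DSS wild-type, 8.34 ± 0.43 in untreated transgenic and 7.53 ± 0.19 in untreated wild-type mice. It read 9.13 ± 0.45 with transgenic flora, 9.97 ± 0.58 with wild-type flora and 8.54 ± 0.27 in axenic controls, so controls of this gene sat above untreated wild-type mice without overlap (8.3 to 8.99 against 7.33 to 7.8). Ly6d, a lipid-anchored protein of the Ly6 family, was highest in the recipients, at 9.32 ± 0.91 with transgenic and 9.53 ± 0.45 with wild-type flora, against 7.79 ± 0.47 in controls. In conventional mice it reached 8.21 ± 0.64 under DSS in transgenic and 8.47 ± 0.61 in wild-type mice, with 7.45 ± 0.22 and 7.13 ± 0.16 in untreated transgenic and untreated wild-type mice.

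The remaining 3 genes spanned narrower ranges. Il33 read 5.87, 5.91, 6.51, 6.67 and 7.94 in DSS transgenic mice and 6.62, 6.88, 7.66, 7.91 and 7.94 in DSS wild-type mice, against 5.86 to 6.28 in untreated transgenic and 5.94 to 6.42 in untreated wild-type mice. In axenic mice its groups overlapped, at 6.86 to 8.46 with transgenic flora, 6.78 to 8.82 with wild-type flora and 6.27 to 8.7 in controls. Phlda1, an intracellular protein of regenerating crypts, had group means from 6.84 to 8.42, and Anxa1, a lipid-binding protein that dampens neutrophil entry, from 9.06 to 10.41, with Anxa1 groups overlapping widely.

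When the 7 groups were ordered by mean, wild-type flora recipients stood first for 8 of the 10 genes, transgenic flora recipients for Clca4b and DSS wild-type mice for Sptssb. Untreated wild-type mice stood last for Plet1, Clca4b, Sptssb, Dhrs9, Sprr1a, Ly6d and Phlda1. Axenic controls stood last for Clca4a, and untreated transgenic mice for Il33 and Anxa1. Of 60 pairs of neighbours in these orders only 3 did not overlap between mice. These were the steps between DSS transgenic mice and axenic controls for Clca4b (3.49) and Dhrs9 (2.42) and between untreated transgenic and untreated wild-type mice for Phlda1 (0.3).

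The size of the DSS response was asked first in wild-type mice, where the choice of genes had used it. Clca4b was higher by 5.46 (SE 0.37, log2), Plet1 by 5.39 (SE 0.19), Sptssb by 4.83 (SE 0.41) and Dhrs9 by 3.72 (SE 0.36), which placed them at ranks 4, 5, 6 and 9 among all rises. Sprr1a differed by 1.96, Ly6d by 1.34, Il33 by 1.23, Phlda1 by 0.92, Clca4a by 0.92 and Anxa1 by 0.49. The groups did not overlap for 8 of 10 genes, all but Clca4a and Anxa1, beside 3.2% of all genes not overlapping and higher, and the same 8 passed adjusted p under 0.05, beside 3.0% of all genes called and higher. These counts follow from the choice. The members' median was 1.65 and that of all genes -0.02.

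In transgenic mice the members are described only, since this response equals the wild-type response plus the genotype difference under DSS minus that without DSS, all used in the choice. Clca4b had the largest positive difference of all genes at 4.69 (SE 0.44), Plet1 had rank 3 at 3.08 (SE 0.83) and Dhrs9 rank 5 at 2.52 (SE 0.40). Sptssb differed by 2.06 (SE 0.69), Sprr1a by 1.11 (SE 0.22, 5 of 5 mice above all untreated), Ly6d by 0.76, Anxa1 by 0.68, Clca4a by 0.66, Phlda1 by 0.64 (SE 0.15, 4 of 5 mice above all untreated) and Il33 by 0.48. Over all genes 3.46% were called and higher, and 5.4% were higher without overlap. The members past the threshold were Clca4b, Dhrs9, Sprr1a and Phlda1, a count that follows from the choice. These 4 became 2 without DSS mouse TG48 or untreated mouse TG29, and 8 without DSS mouse TG47. Of all calls 76.1% were higher, and 61.8% after quantile normalization. The difference between the DSS responses of the genotypes was not tested for these genes.

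**Figure D2:**
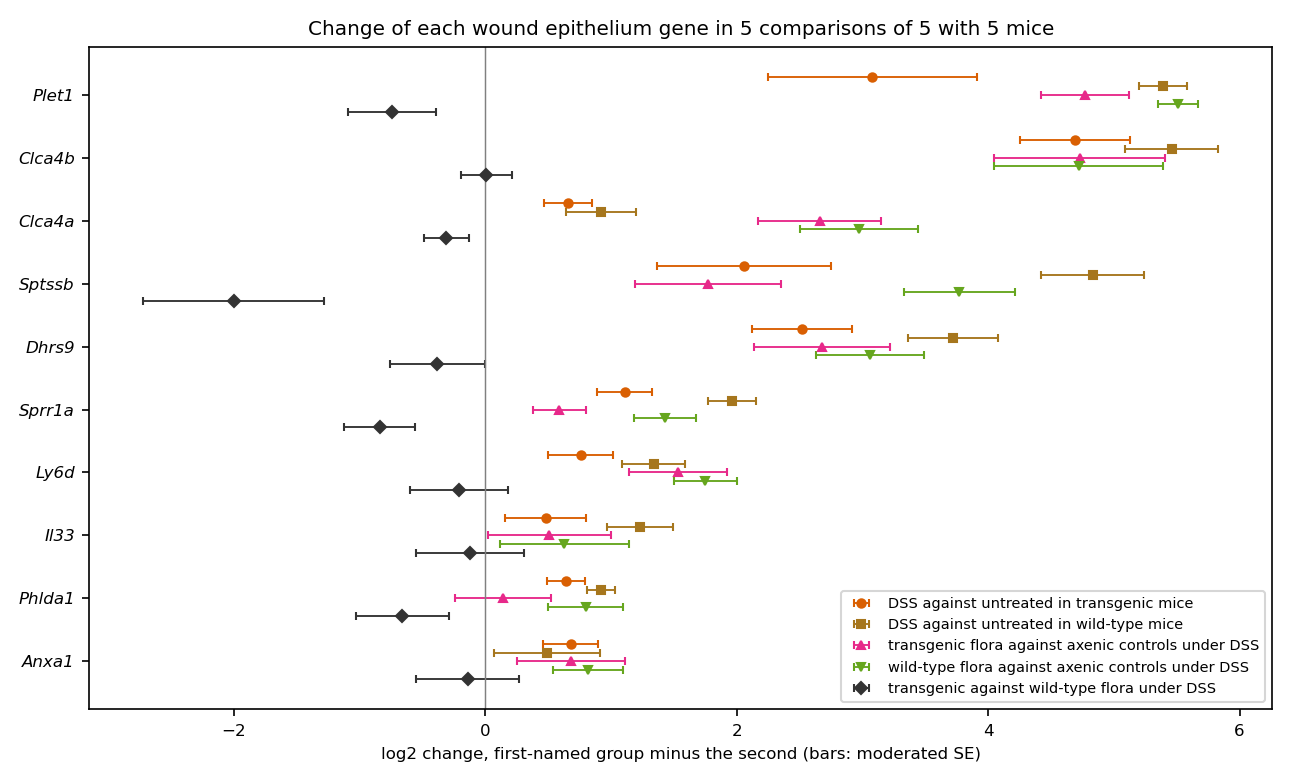
Log2 change of each gene (x axis; points, with the moderated standard error as bars) in 5 comparisons of 5 with 5 mice, genes listed from top to bottom. Clca4b changes by 4.69 to 5.46 in all 4 comparisons with untreated or axenic control mice and by 0.01 between floras, where Sptssb stands at -2.0.

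Genotype alone gave smaller differences, again described only. Without DSS, Plet1 was higher by 1.83 (SE 0.77) in transgenic mice, Sptssb by 1.44 (SE 0.56), Dhrs9 by 0.94 (SE 0.35) and Sprr1a by 0.81 (SE 0.18), and Clca4b by 0.02 (SE 0.31). None of the 10 passed in limma (6 at an unadjusted p under 0.05), beside 0.0753% of all genes called, and Phlda1 was the 1 member higher without overlap (0.387% of all genes). Under DSS the genotypes differed by -1.33 (SE 0.58) for Sptssb, -0.82 (SE 0.40) for Il33, -0.75 (SE 0.50) for Clca4b and -0.49 (SE 0.36) for Plet1, with every member overlapping and none passing in limma (1 at an unadjusted p under 0.05). Of all genes 0.00502% were called, 1.41% were higher without overlap and 0.166% lower. With array weights also 0 of the 10 passed in either comparison. These comparisons share their mice with the DSS comparisons above.

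Recipients of flora were set against axenic controls next, all given DSS. With wild-type flora Plet1 was higher by 5.51 than in axenic controls (SE 0.16) and had rank 2 among all rises. Clca4b was higher by 4.72 (SE 0.67) and Dhrs9 by 3.06 (SE 0.43), given like Plet1 without a test. Sptssb rose by 3.77 (SE 0.44, limma adjusted p = 0.000205) and Clca4a by 2.97 (SE 0.47, limma adjusted p = 0.000653). Ly6d rose by 1.75, Sprr1a by 1.43, Anxa1 by 0.82 and Phlda1 by 0.80 (limma adjusted p = 0.000454, 0.000995, 0.0227 and 0.0335), and Il33 differed by 0.63 (limma adjusted p = 0.28). So of the members tested all but Il33 passed. Over all 10, with Plet1, Clca4b and Dhrs9 counted though not tested, 9 were past the threshold and 7 did not overlap. However, 67.3% of all genes were called here, 32.1% called and higher, and 20.1% higher without overlap. Of all genes 4.98% were called and at least 2-fold higher, as were 7 of the members. Within-array spread differed without overlap, at 1.9 to 2.03 with wild-type flora and 1.64 to 1.78 in controls, so spread and flora cannot be told apart. With that spread as a covariate, chosen after seeing the data, 1 of 19908 genes stayed called, and none of the members tested. Plet1 stood at 5.51, Clca4b at 4.89, Clca4a at 3.45, Sprr1a at 2.92, Sptssb at 2.77 and Dhrs9 at 2.73. Over the 20 alternatives Plet1, described only, ranged from 5.23 to 5.62. All 7 pancreas acinar genes measured also rose here (median 3.4), and with their mean as a covariate, also chosen after seeing the data, 7 of the 10 members passed and Plet1 stood at 5.47.

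With transgenic flora Plet1 was higher by 4.77 (SE 0.35) and Clca4b by 4.73 (SE 0.68), ranks 2 and 3 among all rises, and Dhrs9 by 2.68 (SE 0.54), given without a test. Of the 7 members tested none passed in limma, with Clca4a at 2.66 (SE 0.49, limma adjusted p = 0.0549), Ly6d at 1.53 (limma adjusted p = 0.114), Sptssb at 1.77 (SE 0.58, limma adjusted p = 0.169) and Sprr1a at 0.59 (limma adjusted p = 0.194). Over all 10, 7 had an unadjusted p under 0.05, and 8 passed with array weights. Plet1, Clca4b, Clca4a and Sptssb did not overlap with controls, beside 1.7% of all genes higher without overlap and 0.327% called and higher. Of all calls 97.0% were higher, and 57.9% after quantile normalization. The count past the threshold, 2 of 10, went to 8 without recipient TG922, whose array had the lowest spread of its group (1.66), while the count over all genes went to 5307 (26.7%). It went to 4 without control CT229, where 80 of all genes were called, and to 1 without recipient TG749, TG632 or TG446 (28 or 29 of all genes).

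The floras themselves were compared with the same recipients, so the 3 flora comparisons share mice. No gene of 19908 passed in limma (6856 at an unadjusted p under 0.05, 4886 called with array weights, 1927 with all arrays in 1 model), and 0.0% were called. Between transgenic and wild-type flora Sptssb differed by -2.0 (SE 0.72, limma adjusted p = 0.0959, 0.0275 to 0.626 over the alternatives) and Sprr1a by -0.84 (SE 0.28, limma adjusted p = 0.0863, 0.0296 to 0.479), neither passing. Plet1 differed by -0.74 (SE 0.35) and Clca4b by 0.01 (SE 0.20), given without a test. Without recipient TG749 of transgenic flora 2 members passed, as did 4700 of all genes (23.6%). A p that misses the threshold does not show that the floras act alike on these genes.

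High Plet1 without DSS came from transgenic mice TG28 (11.3) and TG31 (11.14), and mouse TG631 stood between at 8.97. The same 2 mice had the highest Sptssb (8.26 and 8.09), Dhrs9 (8.12 and 7.63), Sprr1a (8.85 and 8.51) and Clca4a (10.83 and 10.3) of their group. Their Clca4b was not raised, at 6.86 in mouse TG28 and 6.37, the lowest of the group, in mouse TG31. Il33 was lowest in them (5.86 and 6.04), and S100a8, a neutrophil granule gene, read 5.48 and 5.38, within the 5.31 to 5.62 of the group. Leaving out 1 mouse moved the Plet1 difference between untreated genotypes between 1.29 and 2.35, and the posterior Hox covariate brought it to 0.53.

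**Figure D3:**
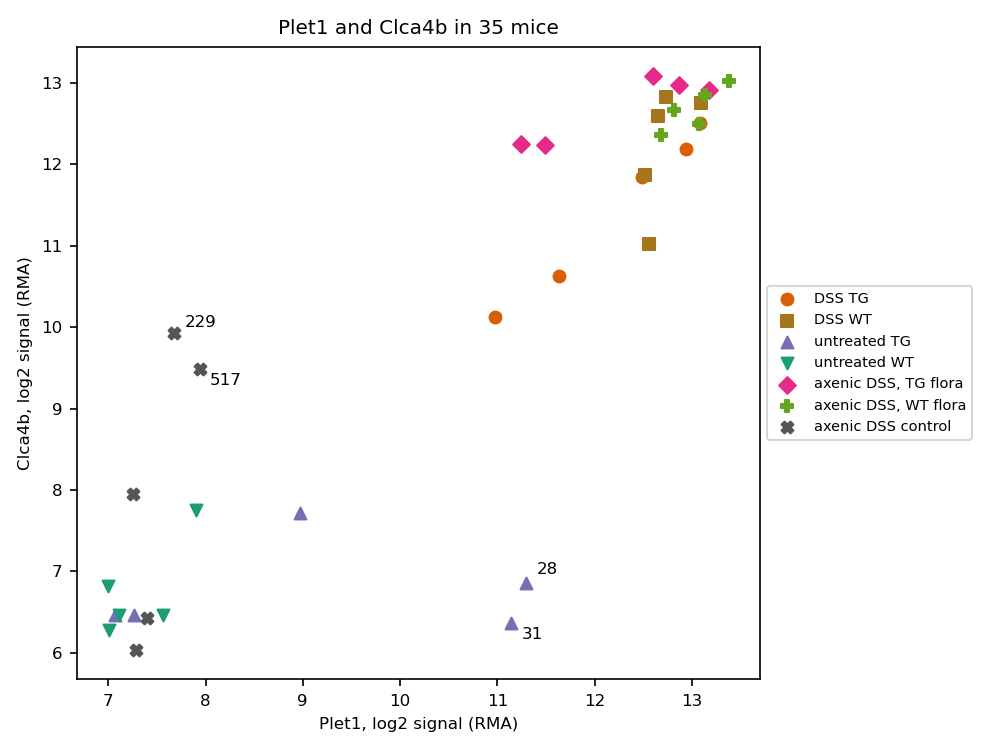
Clca4b against Plet1 (both log2 signal) in 35 mice, marked by group, with untreated transgenic mice TG28 and TG31 and axenic controls CT229 and CT517 labelled. The 2 untreated transgenic mice have high Plet1 (11.3 and 11.14) at low Clca4b, and the 2 controls have raised Clca4b (9.93 and 9.49) at low Plet1.

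Axenic controls CT229 and CT517 showed the opposite pairing. Clca4b (9.93 and 9.49), Clca4a (9.77 and 9.74), Dhrs9 (8.67 and 8.04), Il33 (8.7 and 8.01), Ly6d (8.52 and 7.94) and Anxa1 (10.34 and 10.02) were the highest of the 5 controls. Plet1 (7.68 and 7.94) and Sptssb (5.65 and 5.4) were also the highest of the group but lay near the range of untreated wild-type mice. In the same mice S100a8 read 6.7 and 8.31, against 5.47 to 5.57 in the other 3 controls, and Slc26a3, the chloride exchanger of surface colonocytes, read 8.45 and 7.52, against 11.29 to 12.15. The part of neutrophils and surface colonocytes in these values was not tested.

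**Figure D4:**
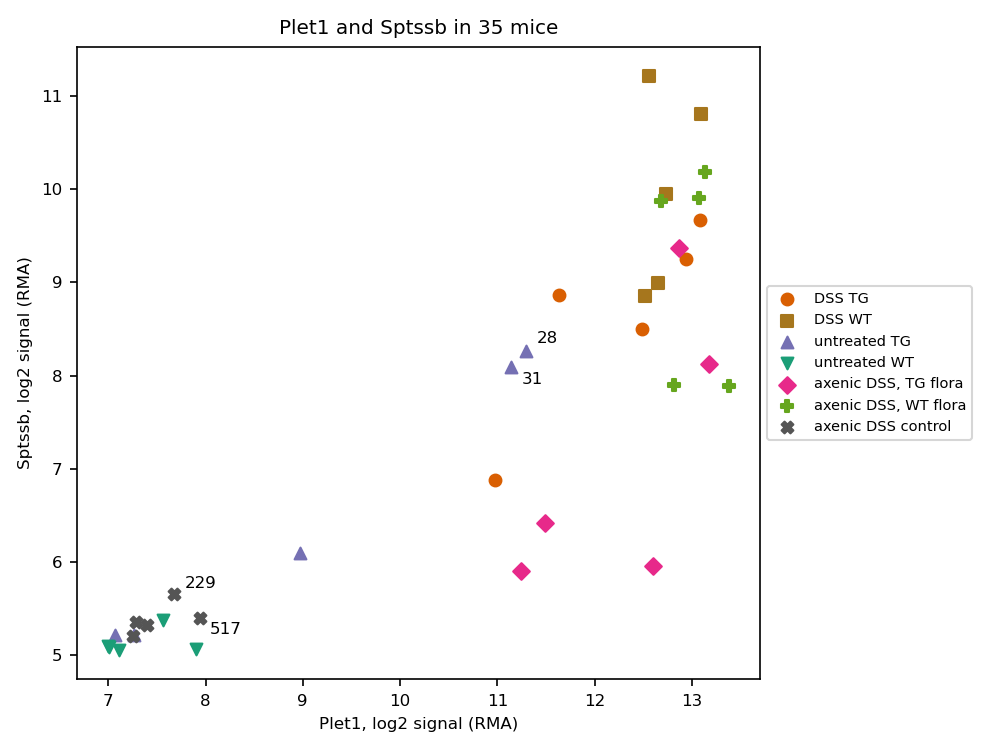
Sptssb against Plet1 (both log2 signal) in 35 mice, marked by group, with the same 4 mice labelled. Mice TG28 and TG31 are raised in both genes, and controls CT229 and CT517 in neither.

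Across the 35 mice with group means subtracted, which leaves only differences among mice of a group, Plet1 went with Sptssb (Pearson r = 0.69, Spearman rho = 0.62, and r = 0.61 without untreated transgenic mice TG28 and TG31). Plet1 with Clca4b gave r = 0.36 (rho 0.62, and r = 0.5 without those 2 mice). Clca4b went with its neighbour Clca4a (r = 0.86, rho 0.79, r = 0.79 without controls CT229 and CT677) and with Dhrs9 (r = 0.7, rho 0.7, r = 0.62 without the same 2). Il33 went with S100a8 (r = 0.82, rho 0.85, r = 0.83 without control CT229 and DSS transgenic mouse TG49) and with Anxa1 (r = 0.68, rho 0.7, r = 0.66). Sprr1a gave r = 0.2 with Clca4b and 0.04 with Ly6d. The 2 genes of each pair share an array, and 14 pairs were computed, so these are descriptions.

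Hoxb13, a homeobox factor that marks the distal colon, was examined as a sign of the position sampled. It read 8.53 and 8.89 in untreated transgenic mice TG31 and TG28, against 10.42 to 10.57 in the other 3, and Hoxd13 was also lowest in them (5.94 and 5.78, against 6.23 to 8.21). Values of groups that differ from these mice in DSS or flora are given beside them. Axenic controls CT517 and CT229 had Hoxb13 of 8.16 and 8.66 and Plet1 of 7.94 and 7.68. DSS transgenic mice had Hoxb13 of 9.72 to 10.29 while Plet1 read 10.98 to 13.08. In DSS wild-type mice Hoxb13 ranged from 6.39 to 9.65 over a Plet1 of 12.52 to 13.09.

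**Figure D5:**
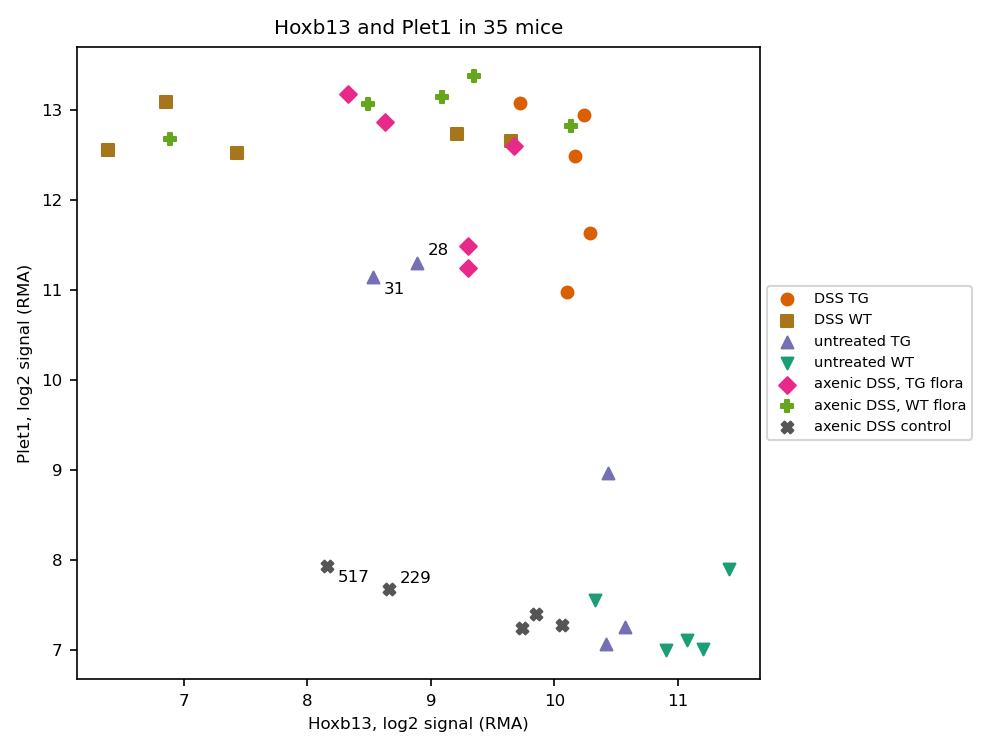
Plet1 against Hoxb13 (both log2 signal) in 35 mice, marked by group, with untreated transgenic mice TG28 and TG31 and axenic controls CT229 and CT517 labelled. At Hoxb13 between 8.16 and 8.89 the 2 transgenic mice lie above 11 in Plet1 and the 2 controls below 8.

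With group means subtracted, Plet1 and Hoxb13 gave r = -0.4 (rho -0.38, r = -0.27 without mice TG28 and TG31), Sptssb and Hoxb13 r = -0.62 (rho -0.66, r = -0.67 without transgenic flora recipient TG749 and DSS transgenic mouse TG47), and Clca4b and Hoxb13 r = -0.05 (rho 0.0). As a list, 5 of 8 posterior Hox genes fell with DSS in wild-type mice (median -1.01), beside 425 of all 19908 genes called and lower. Hoxb13 stood at -3.07 there (SE 0.57). Hoxb13 was taken up with its link to Plet1 known, so its change there is given without a test. In transgenic mice 0 of 8 passed in limma under DSS (1 at an unadjusted p under 0.05). With wild-type flora 4 fell and Hoxa13 rose by 1.26 (limma adjusted p = 0.00231), while Hoxb13 differed by -0.51 (limma adjusted p = 0.426). Those counts stand beside 67.3% of all genes called in that comparison. With the mean posterior Hox level as a covariate, the members past the threshold for DSS in wild-type mice were Plet1 and Clca4b, 2 in place of 8, and 11 in place of 1022 of all genes. The changes of the other 6 were 4.31 for Sptssb, 3.63 for Dhrs9, 1.81 for Sprr1a, 1.54 for Il33, 1.5 for Ly6d and 0.93 for Phlda1. The sources used here do not say which site of the colon was sampled, and its part in these values was not tested.

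Genes with the most similar pattern over all 35 mice were ranked by Pearson r. For Plet1 they were Duoxa2, the maturation partner of the peroxide-making oxidase Duox2 (r = 0.946), the intestinal homeobox gene Isx (0.944), the fucosyltransferase gene Fut2 (0.941), the ganglioside synthase gene B4galnt1 (0.935) and Retnlb, a goblet-cell protein (0.928). With group means subtracted they were Isx (0.806), Tmsb10 (0.802), the potassium channel gene Kcnk6 (0.79), B4galnt1 (0.774) and the mucin gene Muc4 (0.758). Isx read 8.41 and 8.16 in untreated transgenic mice TG28 and TG31, against 5.74 to 6.31 in the other 3. For Clca4b the list was Duoxa2 (0.948), the nitric oxide synthase gene Nos2 (0.937), the tumour necrosis factor receptor gene Tnfrsf1b (0.931), Il4ra (0.93) and the lipid transporter gene Mfsd2a (0.928), and with group means subtracted Duoxa2 (0.855), the glutathione peroxidase gene Gpx2 (0.794), Capg (0.792), Tac1 (0.787) and Rel (0.771). Nos2 read 6.63 and 6.59 in mice TG28 and TG31, near the 6.41 mean of their group.

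Relatives of the members were counted as lists, and with wild-type flora each list count stands beside the 67.3% of all genes called there. The lists were chosen with earlier results of these data known. Genes given with a p were picked for being among the 4 smallest p of their list in a comparison. Here and below, their p values therefore describe picked genes and are no independent test. Of 7 Clca genes 4 were called and higher with DSS in transgenic mice, Clca4b at 4.69 among them, with Clca3a2 at 1.69 (limma adjusted p = 0.00507), Clca3b at 1.11 (limma adjusted p = 0.00556) and Clca3a1 at 0.84 (limma adjusted p = 0.0258). In wild-type mice 3 were higher, with transgenic flora 2, and with wild-type flora 5 rose and 1 fell. Clca1 had group means of 12.37 to 13.46. Of 13 Sprr genes Sprr1a alone was called with DSS in transgenic and in wild-type mice, and with wild-type flora it rose while 9 fell, among them Sprr4 by 1.02 (limma adjusted p = 0.000998) and Sprr2d by 0.83 (limma adjusted p = 0.000415). Its closest relative Sprr1b had group means of 6.33 to 6.95, and the Sprr genes other than Sprr1a lay between 4.65 and 7.64. With wild-type flora 47.8% of all calls were higher, against 76.5% among genes above the 40th percentile of signal. Low-signal genes thus fell more often there, and the part of this in the list counts was not tested. Of 20 stratified squamous markers 0 were higher and 1 was lower under DSS in each genotype (at an unadjusted p under 0.05, 3 in transgenic and 2 in wild-type mice), with 2 higher (Sfn by 1.36 and Serpinb5 by 0.85; limma adjusted p = 0.000157 and 0.000636) and 13 lower with wild-type flora. Of 9 Ly6 genes 1 rose with DSS in transgenic mice (Ly6e, 0.59, limma adjusted p = 0.0137) and 3 in wild-type mice.

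Of 9 genes of serine palmitoyltransferase and its regulators Sptssb alone was called with DSS in wild-type mice, which follows from its choice. With wild-type flora 7 of these genes rose and 1 fell, including Sptlc2, a catalytic subunit, at 1.06 (limma adjusted p = 0.000877). Of 19 retinoid genes 3 were called and higher and 2 lower with DSS in transgenic mice, with Dhrs9 and Rdh11 (0.61, limma adjusted p = 0.0307) up and the retinol-binding gene Rbp2 (-0.71, limma adjusted p = 0.0202) and Aldh1a1 (-0.86, limma adjusted p = 0.0356), which makes retinoic acid, down. In wild-type mice Dhrs9 was called and higher, while Rbp2 (-1.04) and Adh1 (-0.95) fell (limma adjusted p = 0.00428 and 0.0313), and with wild-type flora 4 rose and 5 fell. In the interleukin-33 and interleukin-1 list of 9, 4 rose with DSS in wild-type mice, led by Il1b at 3.87 (limma adjusted p = 0.00119), and Il4ra alone did in transgenic mice (0.97, limma adjusted p = 0.0224). With wild-type flora 2 rose and 2 fell, among them Il13 (-0.88, limma adjusted p = 0.000584). Of 12 annexin and formyl peptide receptor genes 3 rose with DSS in transgenic mice (Anxa6, Anxa2 and Anxa3, by 0.66 to 0.85), 1 fell in wild-type mice (Anxa11, -0.96), and 5 rose and 1 fell with wild-type flora.

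Of 28 other genes of regenerating and fetal-like epithelium, 7 rose with DSS in transgenic mice (median 0.48), with the crosslinking enzyme gene Tgm2 at 1.3 (limma adjusted p = 0.0102) and the protease gene Plau at 0.81 (limma adjusted p = 0.0092). In wild-type mice 7 rose (median 0.36), with the collagen receptor gene Itga2 at 1.62 (limma adjusted p = 0.000871) and Fam3b at 2.01 (limma adjusted p = 0.00211). With transgenic flora 2 rose, Mmp7, a matrix protease, at 1.19 (limma adjusted p = 0.0236) and Fam3b at 1.67 (limma adjusted p = 0.0461). With wild-type flora 13 rose and 1 fell, beside 67.3% of all genes called and 32.1% called and higher. Of 25 targets of YAP and TAZ, 2 were higher with DSS in transgenic mice, 1 higher and 1 lower in wild-type mice, and 0 in limma with transgenic flora (2 at an unadjusted p under 0.05). With wild-type flora 10 of these targets were higher and 1 lower, beside the same shares of all genes. Of 7 epidermal growth factor ligands Ereg (2.06, limma adjusted p = 0.0418) and Nrg1 (1.28, limma adjusted p = 0.0302) rose with DSS in wild-type mice.

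Markers of other cells moved beside these genes. Of all genes 3.0% were called and higher with DSS in wild-type and 3.46% in transgenic mice. With transgenic flora the share was 0.327%, and with wild-type flora 32.1%, where 67.3% were called in all. Of 11 neutrophil genes 0 passed in limma with DSS in transgenic mice (3 at an unadjusted p under 0.05), and S100a8 read 5.43 to 6.07 in 4 of them and 9.57 in mouse TG49, which also had the highest Il33 of its group (7.94). With DSS in wild-type mice 6 of 11 rose, with transgenic flora 3 and with wild-type flora 6. Summed neutrophil levels ran from 66.8 to 95.8 in DSS transgenic, 71.6 to 105.2 in DSS wild-type, 64.0 to 65.9 in untreated transgenic and 65.1 to 68.3 in untreated wild-type mice, and from 85.5 to 115.1 with transgenic flora, 73.2 to 111.3 with wild-type flora and 68.3 to 88.6 in axenic controls. Of 9 fibroblast genes 4 rose with DSS in each genotype. Of 13 colon epithelium genes 9 rose with wild-type flora, with Krt20, a marker of mature surface cells, at 1.93 (limma adjusted p = 4.81e-05). In that comparison 76.5% of calls among genes above the 40th percentile of signal were higher. Of 7 leukocyte genes 2 rose and 1 fell with DSS in transgenic mice, with Ptprc, the pan-leukocyte CD45 gene, at 1.52 (limma adjusted p = 0.0172). In the 2 DSS and 2 flora-against-control comparisons 0 of 8 smooth muscle and 0 of 6 endothelial genes passed in limma (1 to 5 and 0 to 3 at an unadjusted p under 0.05). Plet1 read 10.98, 11.63, 12.49, 12.94 and 13.08 in DSS transgenic mice TG47, TG44, TG46, TG48 and TG49. S100a8 read 5.43, 5.44, 5.57, 6.07 and 9.57 in the same order, against 5.31 to 5.62 in untreated transgenic mice. The summed neutrophil level was 66.8 or more in DSS transgenic, 65.9 or less in untreated transgenic and up to 68.3 in untreated wild-type mice. The part of these cells in the members' values was not tested.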

How the data were processed

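Colon RNA (200 ng per mouse) was hybridised to Affymetrix Mouse Gene 1.0 ST arrays, 35 mice in 7 groups set by titles. The authors normalized the arrays with RMA in Affymetrix Expression Console 1.1, per the submitters' processing notes, and the deposited values are log2 signal (3.78 to 14.4). The sources used here do not give a genome build. Of 28090 probe sets, 21639 had 1 gene symbol in GEO's platform annotation, 1539 had several and 4912 were unlisted. Symbols were updated by Entrez number with RefSeq GRCm38.p6, and the probe set with the highest mean stood for each of 19908 genes. Each comparison was fitted in limma 3.58.1 (R 4.3.3) on its 10 arrays, two-sided, with Benjamini-Hochberg adjustment over all genes. SE is moderated and ± is SD over mice. The number of arrays limits precision.

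Members and 20 gene lists were chosen with earlier results of these data known. Named list genes were among the 4 smallest p per comparison, and genes most like Plet1 or Clca4b the 5 highest r, unnamed and predicted genes left out. Alternatives were other fits, normalizations, filters, covariates and leaving out each mouse. In simulated data with 200 changed genes among 19908, 65% to 91% of 2-fold changes were called, depending on the comparison. Title numbers were taken as separate mice. RMA compresses differences at low signal.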

Additional observations from a re-analysis of the deposited data

Results flagged for a closer look

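Of 70 sets of 5 mice (10 genes in 7 groups), 5 held a mouse flagged as an outlier. The flag set a mouse's distance from the nearest other mouse against the range of its group. Its cutoff was one that chance passes in about 1 in 20, and smaller gaps were not flagged. Sprr1a read 10.09 in DSS transgenic mouse TG48, against 9.18 to 9.41 in the other 4, and 8.72 in DSS wild-type mouse WT55, against 9.54 to 9.78. Dhrs9 read 9.67 in wild-type flora recipient WT880, against 10.31 to 10.49. In untreated wild-type mice Sptssb read 5.38 in mouse WT9, against 5.05 to 5.1, and Phlda1 read 6.68 in mouse WT11, against 6.85 to 6.91.

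A probe set annotated to both Clca4b and Clca4a was left out of the gene table. It read 9.77 ± 0.62 in DSS wild-type and 8.44 ± 0.55 in untreated wild-type mice (SD, n = 5 each), higher by 1.33, between the changes of the separate probe sets of the 2 genes. It was lowest in axenic controls (7.62 ± 0.72), as Clca4a was. Near-identical stretches of the neighbouring genes could share probes.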

How the results depend on the processing

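No paired analysis was possible because the groups share no mouse numbers. Described only, Plet1 ranged from 5.23 to 5.62 over the 20 alternatives for wild-type flora. Also described only, Plet1 ranged from 5.18 to 5.54 for DSS in wild-type mice, and Clca4b from 5.15 to 6.46 there and from 4.09 to 5.02 in transgenic mice. Counts of members past the threshold moved more. For DSS in wild-type mice 8 went to 2 with the posterior Hox covariate, whose values did not overlap between the groups. The count was 7 to 8 with 1 mouse left out. For DSS in transgenic mice 4 went to 8 with array weights, to 2 with the pancreas covariate, and to 2 to 8 with 1 mouse left out. Between untreated genotypes 0 went to 0 to 1 with 1 mouse left out (1 without transgenic mouse TG26). For wild-type flora 9 went to 1 with the within-array SD covariate and to 7 to 9 with 1 mouse left out. For transgenic flora 2 went to 5 with all 35 arrays in 1 model, 8 with array weights, 4 above the 40th percentile, 1 with the posterior Hox or within-array SD covariate, 4 with the pancreas covariate and 1 to 8 with 1 mouse left out. Between floras 0 went to 2 with all 35 arrays or array weights and to 0 to 2 with 1 mouse left out. The causes were not tested. The pancreas and within-array SD covariates were chosen after seeing the data.

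Among members tested or described in those comparisons, values that changed sign belonged to genes that had not passed. With the within-array SD covariate Il33 went to -0.03 for DSS in transgenic mice, Phlda1 to -0.17 and Anxa1 to -0.03 for transgenic flora. With the posterior Hox covariate Il33 went to -0.19 for wild-type flora and Phlda1 to -0.27 for transgenic flora, where quantile normalization gave -0.07 and leaving out 1 mouse -0.08 to 0.4. Between floras Dhrs9 went to 0.31, Ly6d to 0.46, Il33 to 0.47 and Anxa1 to 0.49 with the squamous covariate, and with the within-array SD covariate to 0.64, 0.61, 0.59 and 0.83, and Phlda1 to 0.15. Quantile normalization gave 0.11 for Ly6d, 0.0 for Il33 and 0.18 for Anxa1, and array weights 0.06 for Il33 and 0.17 for Anxa1. Leaving out 1 mouse gave -0.09 to 0.13 for Clca4b, -0.59 to 0.02 for Dhrs9, -0.44 to 0.06 for Ly6d, -0.4 to 0.11 for Il33 and -0.38 to 0.25 for Anxa1. Between conventional genotypes, Clca4b, Clca4a and Il33 without DSS and Dhrs9, Sprr1a and Phlda1 under DSS crossed 0 in some alternatives.

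Counts over all genes moved by over 1.5 times as well. For DSS in wild-type mice 1022 became 1870 (all arrays), 5843 (weights), 1804 (quantile), 11 (posterior Hox), 2138 (squamous), 3572 (array SD) and 514 (pancreas). For DSS in transgenic mice 905 became 600, 3266, 350 and 221 with all arrays, weights, array SD and pancreas. For wild-type flora 13401 became 6637 (quantile), 665 (squamous), 1 (array SD) and 1770 (pancreas). For transgenic flora 67 became 661 (all arrays), 6655 (weights), 152 (quantile), 30 (posterior Hox) and 162 (pancreas). Between untreated genotypes 15 became 4 to 58, between DSS genotypes 1 became 1 to 339, and between floras 0 became 1927 with all arrays and 4886 with weights. Leaving out 1 mouse gave 424 (without untreated WT7) to 1277 (without WT55) for DSS in wild-type mice, 178 (without TG48) to 1668 (without TG47) for DSS in transgenic mice, 11735 to 13465 for wild-type flora and 27 to 5307 (without TG922) for transgenic flora. It gave 4 to 20 between untreated genotypes, 1 to 11 between DSS genotypes, and 0 to 4700 between floras (4700 without TG749, 149 without WT793, 0 otherwise).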
